A study of Mus musculus with 8 samples.

Results

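MHC class I molecules display peptides of intracellular proteins at the cell surface, and 8 genes that make or load those peptides, or switch the system on, were followed in 8 primary mouse osteosarcomas. The genes are B2m, Tap1, Tap2, Tapbp, Psmb8, Psmb9, Psmb10 and Nlrc5. Each was read from the array probe set that carries its symbol alone, and where a gene had several such probe sets the one with the highest mean over the tumours was taken. All 8 were found among the 19938 genes measured in this way. Of the tumours, 4 came from the shRNA OS model, in which a transgenic short hairpin RNA labelled P53.1224 targets p53, and 4 came from the Cre:lox OS model, which carries P53fl/fl alleles for deletion by Cre recombinase. All mice were of strain C57Bl6. Each model held 3 Rbfl/+ tumours and 1 Rb+/+ tumour, so most tumours of both models also carried 1 floxed Rb allele. The shRNA OS tumours lay in the tibia (replicates 1, 2 and 3) and the humerus (replicate 4), and replicate 2 was the Rb+/+ tumour. The Cre:lox OS tumours lay in the scapula (replicate 1, the Rb+/+ tumour), the humerus (replicate 2) and the tibia (replicates 3 and 4). The promoter that drives the hairpin or Cre, and the age of the mice, were not known here beyond a series title that calls the hairpin lineage restricted. As every title carries a separate tumour number, p-values measure the spread between tumours.

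A class I molecule consists of a heavy chain and beta-2-microglobulin, the product of B2m. Peptides are cut by the proteasome, in which the interferon-inducible subunits encoded by Psmb8, Psmb9 and Psmb10 replace those encoded by Psmb5, Psmb6 and Psmb7. The transporter made of Tap1 and Tap2 carries the peptides into the endoplasmic reticulum, and tapasin, the product of Tapbp, joins that transporter to waiting class I molecules. Nlrc5 is a transactivator that works at the promoters of class I, B2m, Tap1 and immunoproteasome genes, and interferon gamma is the classical inducer of the group.

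Psmb9, Tap1, Psmb8 and Tap2 are direct neighbours in this order on chromosome 17 in the RefSeq annotation of mouse assembly GRCm38.p6, inside the MHC class II region between H2-DMb1 and H2-Ob. Tapbp lies elsewhere on chromosome 17, B2m on chromosome 2, and Psmb10 and Nlrc5 on chromosome 8. The submitters' processing notes name another build, mm9, so this annotation served only for neighbours, names and promoter letters. A promoter window was at hand for 6 of the 8 genes, all but Tap2 and Nlrc5, and the 250 bases before each start were searched on both strands. The interferon-stimulated response element core GAAANNGAAA was in the window of B2m alone, against 2.98% of 32851 mouse windows. The gamma-activated site core TTCNNNGAA was in the window of Psmb8 alone, against 7.02% of windows. The X2 box core TGACG, part of the module through which Nlrc5 acts, was in 3 of the 6 windows (B2m, Tap1 and Psmb9), against 17.8% of all windows. CCAAT was in 4 of the 6 (B2m, Tap1, Psmb9 and Tapbp), against 33.8%. These matches describe letters only, and none of these motifs overlaps another in the sequences printed here.

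The windows of B2m, Psmb8 and the shared Tap1 and Psmb9 region are shown because they hold these matches, printed from 5′ to 3′ on the plus strand, with matches on either strand in capitals. In B2m (chr2:122147437-122147686) the capitals mark, in order, the response element core that begins 139 bases before the start, the X2 core and a CCAAT box read on the minus strand. In Psmb8 (chr17:34197945-34198194) they mark the gamma-activated site core that begins 97 bases before the start. Tap1 and Psmb9 are transcribed away from each other, and the 225 bases between their starts (chr17:34187331-34187555) hold 1 CCAAT box at the Psmb9 end and 1 X2 core, each of which counts for both genes.
B2m: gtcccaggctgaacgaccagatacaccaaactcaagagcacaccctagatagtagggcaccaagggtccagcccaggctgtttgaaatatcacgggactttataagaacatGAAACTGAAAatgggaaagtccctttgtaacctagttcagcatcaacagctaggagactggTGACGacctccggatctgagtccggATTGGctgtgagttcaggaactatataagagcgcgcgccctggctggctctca
Psmb8: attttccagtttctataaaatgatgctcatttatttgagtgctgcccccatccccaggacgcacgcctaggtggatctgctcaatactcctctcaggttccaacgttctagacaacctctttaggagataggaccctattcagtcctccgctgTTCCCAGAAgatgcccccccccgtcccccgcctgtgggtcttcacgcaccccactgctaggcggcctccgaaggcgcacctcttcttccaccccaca
Tap1 and Psmb9: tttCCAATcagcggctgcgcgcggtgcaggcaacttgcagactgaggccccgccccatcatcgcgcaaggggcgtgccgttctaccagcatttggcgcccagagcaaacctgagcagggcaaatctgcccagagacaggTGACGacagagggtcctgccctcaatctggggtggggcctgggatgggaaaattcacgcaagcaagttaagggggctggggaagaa

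Values are log2 expression, computed by the authors with RMA, and depth does not apply to an array. Array medians lay between 7.13 and 7.23. The shRNA OS replicate 2 array differed from the others: its correlations with them averaged 0.941, against 0.961 to 0.968 for the rest, and it had the narrowest interquartile range, 2.59 against 2.79 to 3.19. Counts of the 8 genes and of the lists are therefore also given without it. As a check of the tissue, the mean level of 4 measured osteoblast markers (Sp7, Col1a1, Alpl and Ibsp) was 12.45 to 12.56 in shRNA OS tumours and 11.88 to 12.60 in Cre:lox OS tumours. The classical heavy chain genes H2-K1 and H2-D1 were read only by probe sets that carry several symbols and are not analysed here.

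B2m, the invariant light chain, varied least of the 8 genes, over 0.49 log2 units. It measured 13.26, 12.98, 13.33 and 13.17 in shRNA OS replicates 1 to 4, against 13.04, 13.18, 13.19 and 13.47 in Cre:lox OS replicates 1 to 4. The models overlapped, with Cre:lox OS replicate 4 the highest tumour and shRNA OS replicate 2 the lowest.

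The transporter genes differed from each other in where they varied. Tap1, which encodes one of the transporter chains, measured 9.21, 8.37, 8.73 and 8.19 in shRNA OS replicates 1 to 4, against 8.61, 8.71, 8.72 and 9.51 in Cre:lox OS replicates 1 to 4. The models overlapped, and 1 tumour of each, shRNA OS replicate 1 and Cre:lox OS replicate 4, stood above all others. Tap2, the partner chain, measured 8.70, 8.41, 8.59 and 8.33 in shRNA OS replicates 1 to 4, against 8.81, 8.80, 8.89 and 8.87 in Cre:lox OS replicates 1 to 4. Every shRNA OS tumour was below every Cre:lox OS tumour, and the Cre:lox OS tumours lay close together. Tapbp, the tapasin gene, measured 10.40, 9.74, 9.92 and 9.79 in shRNA OS replicates 1 to 4, against 9.95, 10.06, 10.53 and 11.03 in Cre:lox OS replicates 1 to 4. Here the models overlapped through shRNA OS replicate 1, which exceeded Cre:lox OS replicates 1 and 2.

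Psmb8, the immunoproteasome subunit that replaces Psmb5, had the widest spread of the 8 genes, 2.02 log2 units. It measured 8.64, 7.87, 8.46 and 7.43 in shRNA OS replicates 1 to 4, against 8.79, 8.84, 9.23 and 9.45 in Cre:lox OS replicates 1 to 4. As for Tap2, the models did not overlap, and the humeral shRNA OS tumour was the lowest of all. Psmb9, which replaces Psmb6, measured 8.95, 8.60, 8.49 and 8.14 in shRNA OS replicates 1 to 4, against 8.52, 8.62, 9.01 and 9.21 in Cre:lox OS replicates 1 to 4. The models overlapped, and the tibial Cre:lox OS tumours were the highest. Psmb10, which replaces Psmb7, measured 9.73, 9.50, 9.19 and 9.02 in shRNA OS replicates 1 to 4, against 8.97, 8.97, 9.52 and 10.05 in Cre:lox OS replicates 1 to 4. All tibial tumours of both models were above all others.

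Nlrc5, the transactivator, measured 10.20, 10.30, 10.05 and 9.99 in shRNA OS replicates 1 to 4, against 9.72, 9.61, 10.17 and 10.07 in Cre:lox OS replicates 1 to 4. On its highest-mean probe set, tibial tumours were again above all others, and the scapular and humeral Cre:lox OS tumours were the lowest. Unlike B2m, Tap1, Tapbp and the immunoproteasome genes, Nlrc5 on this probe set was not highest in Cre:lox OS replicate 4. On 10 of its 19 probe sets it was highest in that tumour. That tumour was highest for 6 of the 8 genes, and shRNA OS replicate 4 was lowest for 4. Averaged over the 8 genes after centring each on its own mean, the shRNA OS tumours lay at 0.20, -0.21, -0.09 and -0.43 (replicates 1 to 4), against -0.13, -0.08, 0.22 and 0.52 for the Cre:lox OS tumours.

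**Figure D1:**
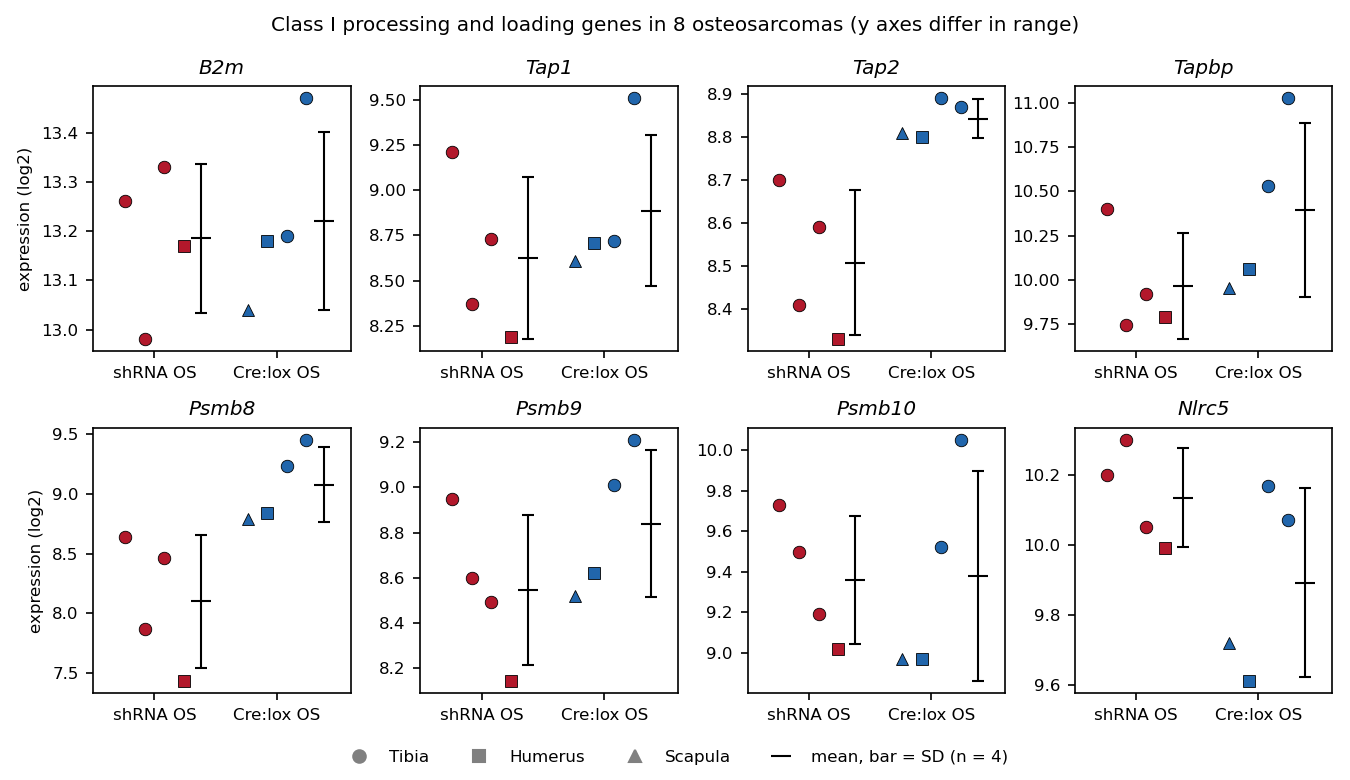
Log2 expression of each gene (y axis, a range of its own per panel) in 4 shRNA OS tumours (red, left) and 4 Cre:lox OS tumours (blue, right); each symbol is 1 tumour, its shape gives the bone, and horizontal and vertical bars give the mean and SD (n = 4). The models do not overlap for Tap2 and Psmb8, and the tibial tumours (circles) are above all others for Psmb10 and Nlrc5 (highest-mean probe set).

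The first comparison asked how the hairpin model differed from the deletion model. Psmb8 and Tap2, 2 neighbours on chromosome 17, had lower values in every shRNA OS tumour, but no gene of the 8 passed the test over all genes. Psmb8 averaged 8.10 ± 0.55 in shRNA OS and 9.08 ± 0.31 in Cre:lox OS tumours (SD, n = 4 each), a difference of -0.98 (SE 0.27; limma, adjusted p = 0.278 over all genes). Tap2 averaged 8.51 ± 0.17 in shRNA OS and 8.84 ± 0.04 in Cre:lox OS tumours, a difference of -0.33 (SE 0.13; limma, adjusted p = 0.443).

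With limma, 0 of the 8 genes had an adjusted p under 0.05, where 0.0201% of all genes (4 of 19938) did. At an unadjusted p under 0.05 the count was 2 of 8, both with lower means in shRNA OS, where 9.63% of all genes reached it in either direction and 6.02% with lower means. Groups without overlap were 2 of 8, both lower, against 5.44% of all genes in either direction and 3.44% lower (without shRNA OS replicate 2, again Tap2 and Psmb8, against 4.24%). Means were lower in shRNA OS for 7 of 8 genes, against 48.1% of all genes, and the median difference was -0.28, against 0.01 over all genes. Without shRNA OS replicate 2 the means were lower for 6 of 8 genes, the median was -0.24 and Psmb8 differed by -0.90 (adjusted p = 0.425, limma). An unadjusted p under 0.05 was then reached by 1 of the 8 genes and by 1692 of all 19938 genes.

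The models overlapped for the other 6 genes. Tapbp averaged 9.96 ± 0.30 in shRNA OS and 10.39 ± 0.49 in Cre:lox OS tumours, with a difference of -0.43 (SE 0.25; limma, adjusted p = 0.648). Psmb9 and Tap1 had differences of -0.29 (SE 0.21) and -0.26 (SE 0.27), with limma adjusted p of 0.734 and 0.829. B2m averaged 13.18 ± 0.15 in shRNA OS and 13.22 ± 0.18 in Cre:lox OS tumours, and Psmb10 averaged 9.36 ± 0.32 in shRNA OS and 9.38 ± 0.52 in Cre:lox OS tumours. Their differences, -0.03 (SE 0.14) for B2m and -0.02 (SE 0.26) for Psmb10, were well within the spread and changed sign with the scaling of the arrays. Nlrc5 alone had a higher mean in shRNA OS, 10.13 ± 0.14, than in Cre:lox OS, 9.90 ± 0.27, a difference of 0.24 (SE 0.16; limma, adjusted p = 0.711).

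**Figure D2:**
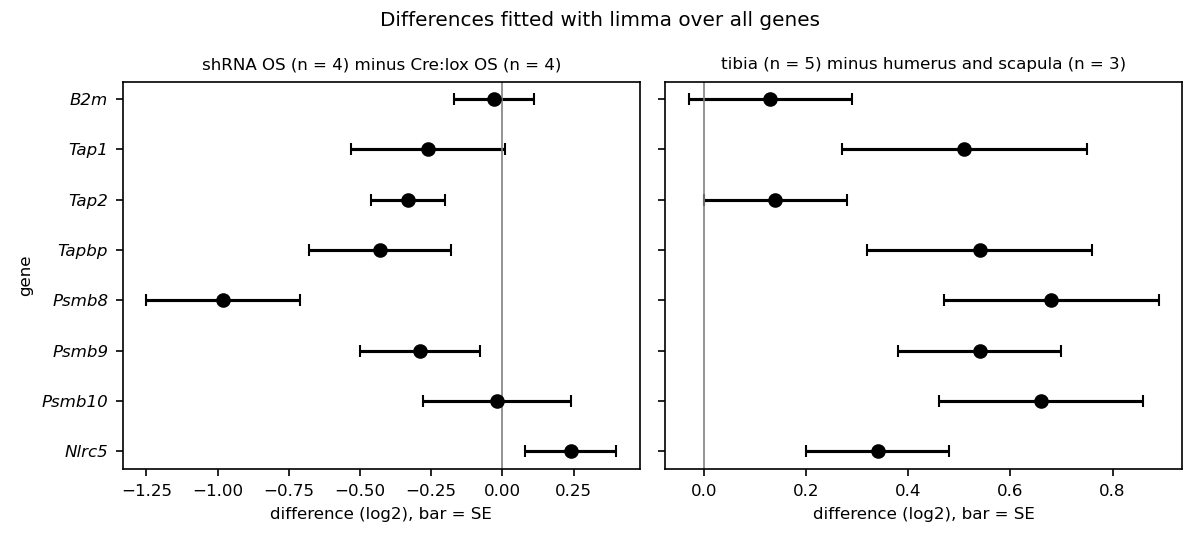
Fitted log2 differences (x axis) with SE bars for each gene (y axis), on the left shRNA OS minus Cre:lox OS tumours (n = 4 each) and on the right tibial minus humeral and scapular tumours (n = 5 and 3, model as a covariate). Psmb8 has the largest model difference of the 8, -0.98, and all 8 site differences are above 0.

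The second comparison set the 5 tibial tumours against the 3 in the humerus or scapula, with the model as a covariate. All 8 genes had a higher fitted level in tibial tumours, where 44.5% of all genes did. The 8 genes mostly varied together (median pairwise r of 0.70), so counts by site or model do not rest on independent genes. Among the 8, the differences of Psmb8 and Psmb10 were the largest. Psmb8 differed by 0.68 (SE 0.21; limma, adjusted p = 0.693), Psmb10 by 0.66 (SE 0.20; adjusted p = 0.691) and Psmb9 by 0.54 (SE 0.16; adjusted p = 0.691). None passed the test over all genes.

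Psmb10 measured 9.19 to 10.05 with a median of 9.52 in tibial tumours, against 8.97 to 9.02 in the others, and Nlrc5 measured 10.05 to 10.30 with a median of 10.17 in tibial tumours, against 9.61 to 9.99. For both genes the groups did not overlap. On the mean of the 18 other Nlrc5 probe sets the site groups overlapped, as tibial Cre:lox OS replicate 3 (7.52) was below humeral shRNA OS replicate 4 (7.73). Nlrc5 differed by 0.34 (SE 0.14; limma, adjusted p = 0.849). Tapbp, with 10.32 ± 0.51 in tibial and 9.94 ± 0.13 in other tumours, differed by 0.54 (SE 0.22; limma, adjusted p = 0.845), and Tap1 by 0.51 (SE 0.24; adjusted p = 0.922). B2m and Tap2 differed by 0.13 (SE 0.16) and 0.14 (SE 0.14), each with a limma adjusted p of 0.999.

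No gene of the 8 had an adjusted p under 0.05 by site (limma, 0 of 8), and none of the 19938 genes did (0.0%). At an unadjusted p under 0.05 there were 5 of 8 (Tapbp, Psmb8, Psmb9, Psmb10 and Nlrc5), all higher in tibial tumours, against 5.64% of all genes in either direction and 2.32% higher. Leaving out any of shRNA OS replicates 1 and 4 or Cre:lox OS replicates 1, 2 and 4 left 3 of 8. In those settings 734 to 1161 of all 19938 genes reached that p. Without shRNA OS replicate 2 there were 5 of 8, and 1345 of all genes. Groups without overlap were 2 of 8 (Psmb10 and, on its highest-mean probe set, Nlrc5), against 2.6% of all genes and 0.607% with tibial tumours higher. Without shRNA OS replicate 2 they were 4 of 8, with B2m and Tap1 added, against 1.66% of all genes. The median difference was 0.52, against -0.03 over all genes, and 0.57 without shRNA OS replicate 2, where all 8 differences were again above 0.

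Within each model the order by site was much the same. Both tibial Cre:lox OS tumours were above the humeral and scapular ones for 8 of 8 genes, against 12.9% of all genes. The gap was only between 8.72 and 8.71 for Tap1 and between 13.19 and 13.18 for B2m. For Nlrc5 it was only between 7.52 and 7.51 on the mean of its 18 other probe sets. On some of these, tibial Cre:lox OS replicate 3 was below the scapular tumour (8.21 against 8.35 on the probe set of second-highest mean). All 3 tibial shRNA OS tumours were above the humeral one for 6 of 8 genes, against 14.3% of all genes, and the exceptions were B2m and Tapbp. The order held within both models for 6 of 8 genes, against 3.01% of all genes. Both exceptions came from shRNA OS replicate 2, and without it the order held in shRNA OS for 8 of 8 genes (28.1% of all genes) and within both models for 8 of 8 (5.2%). The only scapular tumour was also the Rb+/+ tumour of its model, and the humerus gave 1 tumour per model, so site and single tumour cannot be told apart. With site as a covariate, the Psmb8 model difference was -1.15 (SE 0.20; limma, adjusted p = 0.0721), its nearest to the threshold under any alternative, and among tibial tumours alone it was -1.02 (SE 0.29; adjusted p = 0.421).

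Most of the genes varied together from tumour to tumour. Pearson's r was above 0 for 26 of 28 pairs, with a median of 0.70. Of the pairs 3 had a Benjamini-Hochberg adjusted p under 0.05 in an exact two-sided permutation test over all 40320 arrangements of the 8 tumours. Tap2 and Psmb8 had r = 0.97 (p = 9.92e-05, adjusted p = 0.00278, exact permutation), Spearman's rho of 0.95 (p = 0.00114) and r = 0.89 without the 2 tumours farthest from the median. This was also the only pair that passed whichever tumour was left out, with r between 0.95 and 0.98. Tapbp and Psmb9 had r = 0.90 (p = 0.00176, adjusted p = 0.0247, exact permutation), rho of 0.86 (p = 0.0107) and r = 0.79 without the 2 farthest tumours. Tap1 and Tapbp had r = 0.88 (p = 0.0036, adjusted p = 0.0336, exact permutation), rho of 0.79 (p = 0.0279) and r = 0.69 without the 2 farthest tumours.

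The number of such pairs moved with single tumours. It was 8 without shRNA OS replicate 2, 5 without Cre:lox OS replicate 3 and 1 without each of the other 6 tumours. It was 0 after quantile normalization, where r was 0.85 for Tap2 and Psmb8. Over deviations from the model means, permuted within models (576 arrangements), it was again 3, but only the pair of Tap1 and Tapbp (r = 0.88) was in both counts. Tap2 and Psmb8 had r = 0.94 with an adjusted p of 0.0583 (exact permutation). With so few arrangements the p-values take coarse steps, so which pairs passed within models does not rank them.

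Nlrc5 was read here on its highest-mean probe set, 1 of 19. With the average of the other 7 genes, r was 0.15 on this probe set and 0.35 on the mean of its 18 others. Over all 8 tumours, the 7 pairs that include Nlrc5 had a median r of 0.12, between -0.31 with Tap2 and 0.68 with Psmb10, and 0 had an adjusted p under 0.05. The 21 pairs without it had r between 0.29 and 0.97 with a median of 0.76. Without shRNA OS replicate 2, where Nlrc5 was highest, the medians were 0.44 with Nlrc5 (-0.08 to 0.71) and 0.77 without it. Over deviations from the model means all 7 pairs with Nlrc5 were above 0, with a median of 0.49 (0.19 to 0.82), against a median of 0.78 for the pairs without it. Whether the pairs with and without Nlrc5 differ was not tested, because they share genes and tumours.

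**Figure D3:**
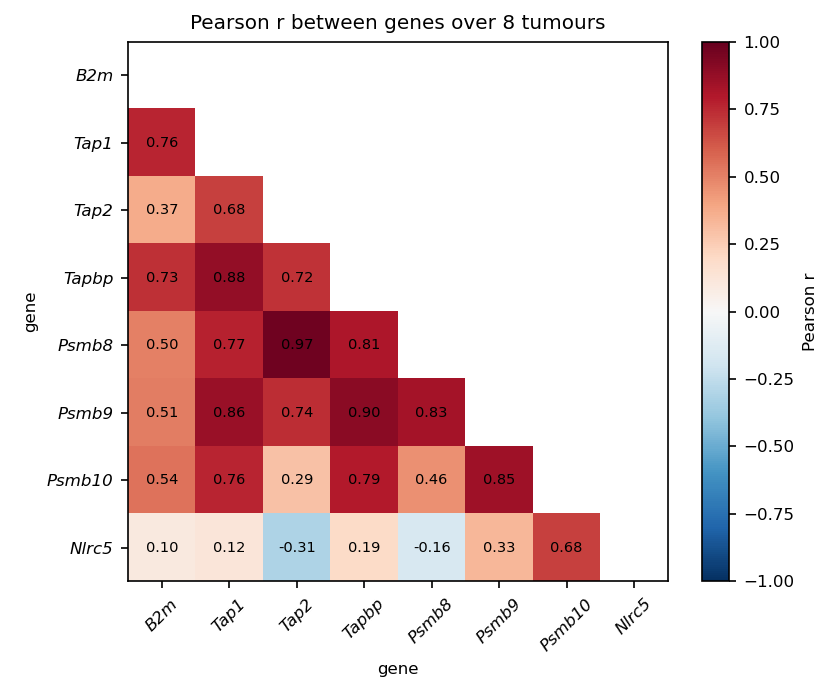
Pearson r over 8 tumours for the 28 pairs of genes, printed in each cell and coloured from blue (-1) to red (1). The Tap2 and Psmb8 cell holds the highest value, 0.97, and the bottom row, Nlrc5 on its highest-mean probe set, holds the lowest, -0.31 with Tap2.

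In a bulk tumour, fewer cells of a type and less RNA per cell cannot be told apart, so marker levels of other cells are given beside these patterns. The mean of 10 macrophage markers was 10.87, 9.50, 9.76 and 9.16 in shRNA OS replicates 1 to 4, against 9.71, 10.13, 11.10 and 11.16 in Cre:lox OS replicates 1 to 4. It was thus highest in the tumours where most of the 8 genes were high and lowest in shRNA OS replicate 4. All 10 markers had lower means in shRNA OS tumours (median difference -0.77; smallest limma adjusted p = 0.446), also without shRNA OS replicate 2, and 9 of 10, all but Cd68, had higher levels in tibial tumours (median 1.19; smallest limma adjusted p = 0.647), each of these 9 with an unadjusted p under 0.05. All 10 were higher in tibial tumours without shRNA OS replicate 2. Of all genes, 48.1% had a lower mean in shRNA OS and 44.5% were higher in tibial tumours, 2.32% with an unadjusted p under 0.05 (limma). The lowest value of any macrophage marker was 7.16, for Cd14 in shRNA OS replicate 4, and the part of these markers in the class I results was not tested.

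Over the 8 tumours, the macrophage mean had r = 0.95 with Psmb9 (adjusted p = 0.00248, exact permutation over 8 relations; rho of 0.90) and r = 0.93 with Tapbp (adjusted p = 0.000794, exact permutation; rho of 0.95). These relations were added after seeing the data, and the adjustment covers the 8 genes but not the choice of this marker list. Without the 2 farthest tumours r was 0.91 for Psmb9 and 0.96 for Tapbp. Over deviations from the model means r was 0.94 for Psmb9 and 0.90 for Tapbp. Psmb8, Tap1 and Tap2 had r of 0.85, 0.84 and 0.79, with adjusted p of 0.0105, 0.0105 and 0.0409 (exact permutation). Without the 2 farthest tumours r was 0.70 for Psmb8, 0.97 for Tap1 and 0.65 for Tap2. Psmb10 (r = 0.75, adjusted p = 0.0566), B2m (r = 0.60, adjusted p = 0.137) and Nlrc5 (r = 0.24, adjusted p = 0.553) did not pass (exact permutation). For Nlrc5 only the highest-mean probe set was set against these markers. Over deviations from the model means r was 0.84 for Psmb10, 0.62 for B2m and 0.68 for Nlrc5. Without shRNA OS replicate 2 the 8 values of r ran from 0.50 for Nlrc5 to 0.99 for Psmb9.

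The 12 measured genes of the response to interferon alpha and beta had a mean of 9.04, 7.93, 8.26 and 8.13 in shRNA OS replicates 1 to 4, against 8.60, 7.59, 8.05 and 9.59 in Cre:lox OS replicates 1 to 4. shRNA OS replicate 1 and Cre:lox OS replicate 4, the top tumours for Tap1, were also the top tumours here, while Cre:lox OS replicate 3, second for Tapbp, Psmb8 and Psmb9, was not. T cell markers had means of 6.33 to 6.97 in shRNA OS and 6.16 to 6.71 in Cre:lox OS tumours, with shRNA OS replicate 1 the highest. All of these means were below the median of every array, so the T cell list was read at low levels. Osteoblast markers had their lowest means, 11.88 and 12.16, in Cre:lox OS replicates 4 and 3.

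Other marker lists also moved with the groups, and none of their genes had an adjusted p under 0.05 (limma). Of all genes, 44.5% were higher in tibial tumours and 48.1% had a lower mean in shRNA OS. By site, all 3 leukocyte markers were higher in tibial tumours (median difference 0.88), as were 5 of 5 skeletal muscle genes (0.75) and 5 of 5 MHC class II genes (0.91), while 6 of 6 osteoclast genes (-1.12), 5 of 5 endothelial genes (-0.19) and 4 of 4 osteoblast genes (-0.37) were lower. By model, the shRNA OS mean was lower for all 3 leukocyte markers (-0.38; 2 of 3 without shRNA OS replicate 2) and for 5 of 5 skeletal muscle genes (-0.69; -0.26 without shRNA OS replicate 2). It was higher for 5 of 5 MHC class II genes (0.88), opposite to most of the 8 genes, and for 5 of 5 endothelial genes (0.17). The part of these markers in the class I results was not tested.

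**Figure D4:**
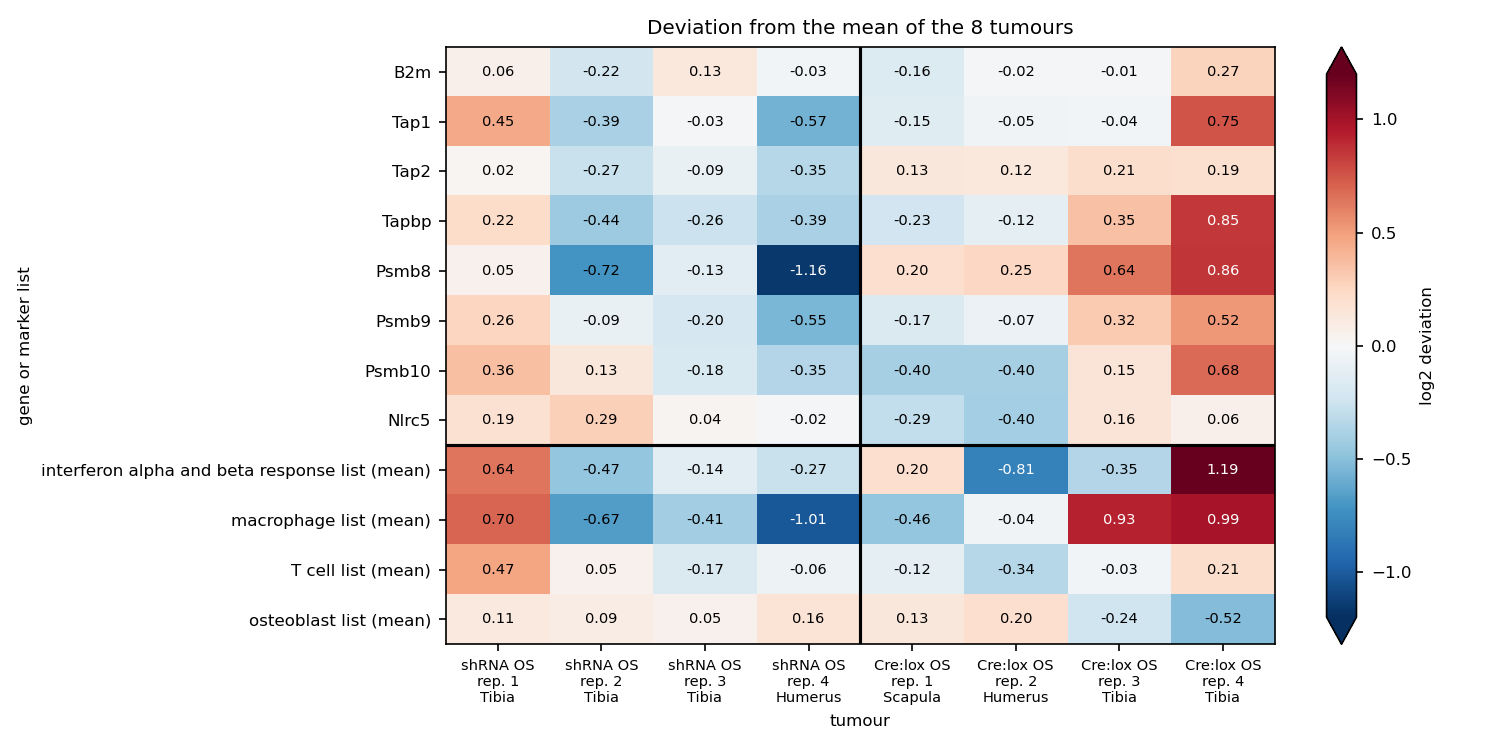
Log2 deviation of each gene (rows above the line) and of the mean of 4 marker lists (rows below it) from its own mean over the 8 tumours (columns, shRNA OS left, Cre:lox OS right); red is above and blue below that mean. Cre:lox OS replicate 4 is above the mean for all 8 genes, and the macrophage list follows most of the class I genes across tumours.

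The genes most like the group were ranked by Pearson's r over 8 tumours with the average of the 8 centred genes, as a description. Ap1b1 (0.979), a subunit of a clathrin adaptor, came first, followed by Clec4n (0.979), a C-type lectin receptor, Ms4a4a (0.978), Naip2 (0.977), Arhgap22 (0.977), Rab3il1 (0.971), Fcrls (0.970), Lmo2 (0.969), C1qc (0.969), a chain of complement C1q and one of the macrophage markers, and Gpr84 (0.966). After quantile normalization 3 of these, Ap1b1, Ms4a4a and Lmo2, were still among the first 10. Without shRNA OS replicate 2, 5 were (Ap1b1, Clec4n, Ms4a4a, Rab3il1 and Gpr84). The macrophage markers had a median r of 0.92 with the group average (0.23 to 0.97), the interferon alpha and beta genes 0.74, T cell markers 0.32, leukocyte markers 0.91, MHC class II genes 0.35, skeletal muscle genes 0.29, osteoclast genes -0.70, osteoblast markers -0.70, and all genes -0.12.

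Further genes of the pathway came from 7 lists, of which 73 of 88 genes were measured. None had an adjusted p under 0.05 in either comparison (limma). As background for the counts, 48.1% of all genes had a lower mean in shRNA OS and 44.5% were higher in tibial tumours. Of the class I heavy chains 10 of 19 were measured, all nonclassical or class I-like, and the shRNA OS mean was higher for 4 and lower for 6, also without shRNA OS replicate 2. H2-M2 measured 6.80, 6.90, 6.15 and 6.14 in shRNA OS replicates 1 to 4, against 5.81, 5.85, 5.68 and 5.41 in Cre:lox OS replicates 1 to 4. All of these values were below the median of every array, so H2-M2 was read at a low level. The models did not overlap, and the difference was 0.81 (SE 0.21; limma, adjusted p = 0.241), opposite in sign to Psmb8 and Tap2. Cd1d1 (0.37), which presents lipids, came next by p among the chains with higher means, and H2-M3 (-0.53), which presents formylated peptides, and H2-Q2 (-0.19) had the smallest p among those with lower means, with limma adjusted p of 0.778, 0.553 and 0.724. By site 10 of 10 heavy chains had higher levels in tibial tumours, but 8 of 10 without shRNA OS replicate 2, and the median was only 0.16. H2-M3 (0.65) and Mr1 (0.40), which presents vitamin metabolites, had the smallest p (limma adjusted p = 0.691 and 0.816).

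The standard proteasome core had a lower mean in shRNA OS for 13 of 14 genes, against 48.1% of all genes. The median difference was -0.14 (12 of 14 and -0.17 without shRNA OS replicate 2), and 0 of the 14 had an unadjusted p under 0.05 (limma). The core subunits Psmb5, Psmb6 and Psmb7 differed by -0.15, -0.08 and -0.26, against -0.98, -0.29 and -0.02 for Psmb8, Psmb9 and Psmb10. The 2 of smallest p were Psmb7 and Psma5 (-0.30), with limma adjusted p of 0.628 and 0.648, and Psma4 (0.01) was the exception. By site the core split into 8 higher and 6 lower (10 and 4 without shRNA OS replicate 2), with a median of 0.04. The smallest p were those of Psmb5 (0.36) and Psma1 (0.14) on the higher side and of Psma5 (-0.16) and Psmb4 (-0.09) on the lower.

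Proteasome activators and assembly factors had lower means in shRNA OS for 7 of 8 genes (5 of 8 without shRNA OS replicate 2). Psmg1 (-0.49), an assembly chaperone, and Psme2 (-0.38), a subunit of the interferon-inducible PA28 activator, had the smallest p, with limma adjusted p of 0.459 and 0.562, while Psme3 differed by 0.06. By site 5 of 8 were higher, also without shRNA OS replicate 2, with Psme4 (0.35) and Psme1 (0.31) of smallest p, and Psmg3 (-0.22) and Psme3 (-0.23) on the lower side. The loading complex and chaperones of the endoplasmic reticulum split into 3 higher and 4 lower in shRNA OS, also without shRNA OS replicate 2. By p, Tapbpl (-0.24), a tapasin relative, and Erap1 (-0.31), which trims peptides, came first on the lower side, and Calr (0.09) and Hsp90b1 (0.11) on the higher, with no limma adjusted p under 0.656. By site 4 of 7 were higher (5 of 7 without shRNA OS replicate 2), with Hsp90b1 (0.30) and Tapbpl (0.19) of smallest p, and Pdia3 (-0.10) and Hspa5 (-0.01) on the lower side.

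Of 13 measured regulators of class I transcription, the shRNA OS mean was higher for 9 and lower for 4 (11 and 2 without shRNA OS replicate 2). Rfx5, a subunit of the complex that binds the X box, differed by 0.37 (SE 0.13; limma, adjusted p = 0.408), Nfyb by 0.20, Rela by -0.36 and Irf8 by -0.43. By site Irf8, an interferon regulatory factor of myeloid cells, differed by 0.86 (SE 0.33; limma, adjusted p = 0.813) and Irf1 by 0.28, with Rela (-0.53) and Rfxap (-0.25) on the lower side. Of 9 genes of interferon gamma signalling, the shRNA OS mean was higher for 5 and lower for 4 (4 and 5 without shRNA OS replicate 2). Cxcl9, a chemokine induced by interferon gamma, differed by 1.64 (SE 0.56; limma, adjusted p = 0.394), Ifng itself by 0.04, Socs1 by -0.36 and Ifngr1 by -0.21. Ifng measured only 6.23 to 6.64 over the tumours, below the median of every array, so its small difference says little about its level in the models. By site Gbp3 (0.71) and Cxcl10 (0.88) were higher and Jak2 (-0.86) was lower, with no limma adjusted p under 0.82. In the interferon alpha and beta list, the shRNA OS mean was higher for 4 of 12 genes and lower for 8. These were 5 and 7 without shRNA OS replicate 2. Ddx58 (-0.62) and Oas1a (-0.39) had the smallest p on the lower side and Rsad2 (0.76) and Ifih1 (0.30) on the higher one, with no limma adjusted p under 0.509. By site 11 of 12 were higher, with a median of 0.60 (11 of 12 without shRNA OS replicate 2). Ifih1 (0.65) and Oas1a (0.48) had the smallest p of these, and Rsad2 (-0.07) was lower (no limma adjusted p under 0.816).

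Nlrc5 is the one gene of the 8 with several probe sets that carry its symbol alone, 19 in all, and its account depends on which is read. Tapbp is also on 2 probe sets that carry several symbols, which were not read here. The highest-mean probe set varied over 0.68 log2 units, and 17 of the other 18 varied more, over up to 1.94. The mean of those 18 was 8.19, 8.01, 8.34 and 7.73 in shRNA OS replicates 1 to 4, against 7.51, 7.30, 7.52 and 8.42 in Cre:lox OS replicates 1 to 4. The highest tumour was thus Cre:lox OS replicate 4, as for most of the other genes, and this held for 10 of the 19 probe sets. Cre:lox OS replicate 3 was above shRNA OS replicates 3 and 4 on the highest-mean probe set (10.17) and below every shRNA OS tumour on the mean of the rest (7.52). The site groups therefore overlapped on that mean, as shRNA OS replicate 4 (7.73) was humeral.

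All 19 had a higher mean in shRNA OS tumours (0.15 to 0.64), with or without shRNA OS replicate 2, and 1 had an unadjusted p under 0.05 (limma, smallest adjusted p = 0.511 over 21789 probe sets). All 19 were likewise higher in tibial tumours (0.18 to 0.91), 9 of them with an unadjusted p under 0.05 (limma, smallest adjusted p = 0.755). These probe sets read 1 gene in the same tumours and are not independent. With the average of the other 7 genes, r over 8 tumours was 0.15 for the highest-mean probe set and 0.35 for the mean of the 18 others, given as a description.

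**Figure D5:**
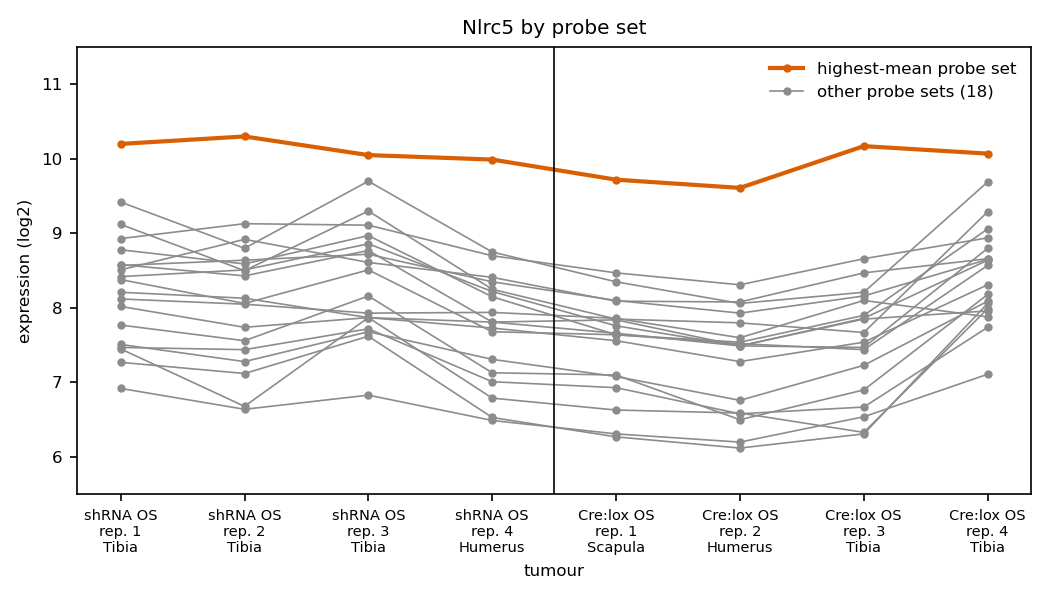
Log2 expression (y axis) of the 19 Nlrc5 probe sets in each tumour (x axis, shRNA OS left, Cre:lox OS right); orange is the highest-mean probe set and grey lines are the other 18, with lines joining values of 1 probe set. Averaged over the grey lines, Cre:lox OS replicate 4 is highest, at 8.42, and replicates 1 to 3 of that model lie between 7.30 and 7.52, while the orange line is at 10.17 in replicate 3.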

How the data were processed

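RNA of 8 primary tumours was extracted with Trizol and RNeasy columns and hybridised to 1-colour arrays, per the labels. The authors deposited log2 expression values computed with RMA, per the submitters' processing notes, which name the build mm9; the version of RMA is not given in the sources used here. Each array held 35556 probe sets with values between 2.53 and 14.57, of which 21789 had 1 gene symbol. A gene was represented by its probe set of highest mean, which gave 19938 genes. The number of arrays limits the precision.

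Differences were fitted over all genes with limma 3.58.1 (lmFit and eBayes, tested on simulated data) in R 4.3.3, adjusted by Benjamini-Hochberg at a threshold of 0.05. The model comparison had no covariate, and the site comparison had the model. Replicate numbers follow accession order and link no tumours. The 8 genes and all lists were chosen with earlier results of these data known. All 8 genes are named, and of each list the 2 of smallest p per direction and comparison; H2-K1, H2-D1, the remaining heavy chains with several symbols and the substituted subunits Psmb5 and Psmb6 were named after their values were seen. Alternatives were array scaling, filters on dim genes, averaged probe sets, other variance models, array weights, covariates and subsets of tumours. The separate Nlrc5 probe sets, the relations to macrophage markers and the repeats without shRNA OS replicate 2, like the pair correlations with each tumour left out, were added after seeing the data. Some listed genes were not analysed here. Sequences are from RefSeq, GRCm38.p6.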

Additional observations from a re-analysis of the deposited data

Results flagged for a closer look

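Tap1 in Cre:lox OS replicate 4 measured 9.51, far above the other Cre:lox OS tumours at 8.61 to 8.72. Its gap to the nearest of them took 0.877 of the group's whole range, past Dixon's limit for the group. Of 24 groups of values tested in this way 1 met that limit, and chance gives about 1 in 20. In that tumour the interferon alpha and beta genes (9.59) and the macrophage markers (11.16) also had their highest means of the 8 tumours, and their part in the Tap1 value was not tested.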

How the results depend on the processing

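In 19 alternatives per comparison, 0 of the 8 genes had an adjusted p under 0.05 by model or by site. By model, all genes but B2m and Psmb10 kept their sign in all 19. B2m was at 0.01 with median centring, 0.06 with array weights, and between -0.10 and 0.05 with 1 tumour left out (0.03 without shRNA OS replicate 2, 0.05 without Cre:lox OS replicate 4). Psmb10 was at 0.07 with quantile normalization, 0.03 with median centring, 0.09 with array weights, and between -0.15 and 0.21 with 1 tumour left out (0.04 and 0.10 without shRNA OS replicates 3 and 4, 0.03 and 0.21 without Cre:lox OS replicates 3 and 4). Psmb8 ranged from -1.16 to -0.76, with adjusted p from 0.0721 to 0.538. By site all 8 genes stayed above 0 in all 19 (0.05 to 0.81), and the smallest adjusted p, 0.221 for Psmb8, came with array weights.

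Of the 8 genes, 1 to 4 had an unadjusted p under 0.05 by model (limma). The count was 4 with site as a covariate (2168 of all 19938 genes). It was 1 with quantile normalization (2218 of all genes), median centring (1924) or Rbfl/+ tumours alone (1737). By site the count was 2 to 6 of the 8 genes. It was 2 without a covariate (689 of all genes) and 6 with quantile normalization (1325) or array weights (1750). It was 3 with Rbfl/+ tumours alone (1080) or with the scapular tumour left out (869). Over all 19938 genes, calls by model ranged from 0 to 42, the most without shRNA OS replicate 1. Pairs past the threshold numbered 0 after quantile normalization and 1 to 8 with 1 tumour left out, and 3 of the 10 most similar genes stayed so after quantile normalization. The cause of these changes was not tested. No paired analysis was possible because replicate numbers follow accession order and the tumour numbers in the labels pair nothing.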
